A study of Rattus norvegicus with 29 samples.

Results

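The comparison described here is that of plasma microRNAs (miRNAs) between sham-operated rats of 2 study sites, UEF and Monash. Its members were chosen by site and operation alone. They were the 4 UEF sham rats and the 3 Monash sham rats, 7 of the 29 rats sequenced in the series, and all miRNAs of the count table were examined in them. The series sequenced small RNA from plasma taken 48 h after surgery at 3 sites, UEF, Monash and UCLA. It asked whether circulating miRNAs, collected under 1 harmonised protocol, could mark rats that later develop epilepsy after traumatic brain injury (TBI).

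All rats were adult male Sprague-Dawley rats. Sham rats of both sites underwent anaesthesia with isoflurane and the surgery, received buprenorphine, and did not receive the impact. The 13 injured rats of both sites, used below as a second comparison, received a lateral fluid-percussion impact and were later divided by video-EEG into those without epilepsy (TBI-, 4 at UEF and 3 at Monash) and those with epilepsy (TBI+, 4 at UEF and 2 at Monash). The 3 sham, 3 TBI- and 3 TBI+ rats of UCLA are given only where they bear on a result. Blood came from the tail vein into K2 EDTA tubes, and plasma of all sites was extracted and sequenced at 1 service laboratory, with 1 library per rat. The vendor of the rats, the housing before surgery, the feed, medical oxygen, the fluid supplementation and the post-operative feeding differed between the sites. The length of anaesthesia at sampling, the time to centrifugation and the shipping of plasma differed too, so site stands for all of these together.

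A miRNA is a short RNA that guides an Argonaute protein to messenger RNAs, mainly through its seed, the bases from position 2 to position 8. Each precursor hairpin can give a mature miRNA from its 5′ arm (5p) and another from its 3′ arm (3p), and usually 1 of the arms accumulates more than the other. Plasma holds miRNAs released by blood cells, by the liver and by other organs, in vesicles or bound to proteins, so that a few tissue-restricted miRNAs point to their likely tissue.

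The sequences below are those on which the comparison turned, with the seed in capitals. They were taken from RefSeq on the build GRCr8, in which 25 of the 27 miRNAs that differed and 660 of the 739 tested were found. The first set comes from the miR-122 locus, the liver miRNA that dominated the UEF sham libraries. The mature miR-122-5p lies at chr18:61028831-61028852 on the plus strand, miR-122-3p at chr18:61028867-61028885 on the same strand, and miR-3591 at chr18:61028831-61028850 on the minus strand.
miR-122-5p: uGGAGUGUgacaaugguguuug
miR-122-3p: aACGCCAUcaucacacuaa
miR-3591: aACACCAUugucacacucca

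All 20 bases of miR-3591 were the exact reverse complement of the first 20 bases of miR-122-5p. The counting is not stated to have used strand, so the counts of miR-3591 and miR-122-5p could not be told apart with certainty. The second set holds miR-708-3p, which had the lowest p, at chr1:160011214-160011235 on the plus strand within the span of Tenm4, and 5 miRNAs of the imprinted region of chromosome 6 that were higher at UEF.
miR-708-3p: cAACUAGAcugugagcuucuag
miR-337-3p: uUCAGCUCcuauaugaugccuuu
miR-673-3p: uCCGGGACugaguucugugcac
miR-1193-3p: uAGGUCACccguuuuacuaucc
miR-370-5p: cAGGUCACgucucugcaguuacac
miR-667-3p: uGACACCUgccacccagcccaa

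The seeds of miR-1193-3p and miR-370-5p were the same, and no other tested miRNA with a sequence carried that seed. The third set holds the 3 miRNAs higher at Monash that are described most fully below. The first of these, miR-134-3p, lies at chr6:134570359-134570380 and miR-379-3p at chr6:134543496-134543517, both on the plus strand of the imprinted region, and miR-484 at chr10:1394915-1394936 on the minus strand.
miR-134-3p: cUGUGGGCcaccuagucaccaa
miR-379-3p: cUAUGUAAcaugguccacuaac
miR-484: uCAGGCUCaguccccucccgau

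The total miRNA count per sham library lay between 2073638 and 5223469 at UEF and between 1162307 and 2906538 at Monash. The means were 3256627.8 ± 1368798.8 (SD, n = 4) and 1847995.3 ± 929973.5 (SD, n = 3), and the ranges overlapped (two-sided exact permutation p = 0.171, where the smallest possible value with these 7 rats is 0.0286). Between 658 and 737 miRNAs reached 10 counts at UEF and between 662 and 707 at Monash (exact permutation p = 0.286). Rat 3 of UEF stood apart, with the largest library, the fewest detected miRNAs of the UEF shams and the smallest scaling factor of the trimmed mean of M-values (TMM), 0.455 against 0.874 to 1.39 in the other 6 rats. The log2 fold changes of the miR-122 locus and the shares of the cell type lists are given below with and without it.

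As a whole, the miRNA profiles of the sites were close but distinguishable. The mean Spearman correlation of log2 CPM (read counts per library, scaled to a common size) was 0.915 between sham rats of the same site and 0.868 between sham rats of different sites. This difference of 0.047 was the largest of all 35 ways to assign the 7 rats (one-sided exact permutation p = 0.0286, the smallest possible). The correlation within Monash was 0.932, and within UEF it was 0.907. Of the 739 miRNAs tested, 79.4% differed by less than 1 on the log2 scale between the sites, and the median of the absolute log2 fold change was 0.527.

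Of 754 miRNAs in the table, 739 passed the filter on low counts and were tested with edgeR's quasi-likelihood test. Of these, 27 passed an adjusted p of 0.05, which is 3.65% of those tested. Plasma of UEF sham rats was higher in 17 (2.30%) and plasma of Monash sham rats in 10 (1.35%). At an unadjusted p under 0.05 there were 129 miRNAs (17.5%). In all 27 the values of the sites did not overlap, and the same held for 114 of the 739 (15.4%), with 57 in each direction. Of the 27, 13 had a mean count under 100, as did 429 of the 739 tested (58.1%), miR-122-5p and miR-3591 had the highest, and 12 lay in between. The count depended on the scaling, with 22 miRNAs (17 higher at UEF and 5 at Monash) under upper-quartile scaling, 5 under total counts alone and none when miR-28-3p set the scale, and DESeq2 called 89. Without rat 3 of UEF 36 passed, without rat 1 of UEF 13, and without any 1 Monash rat 5.

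**Figure D1:**
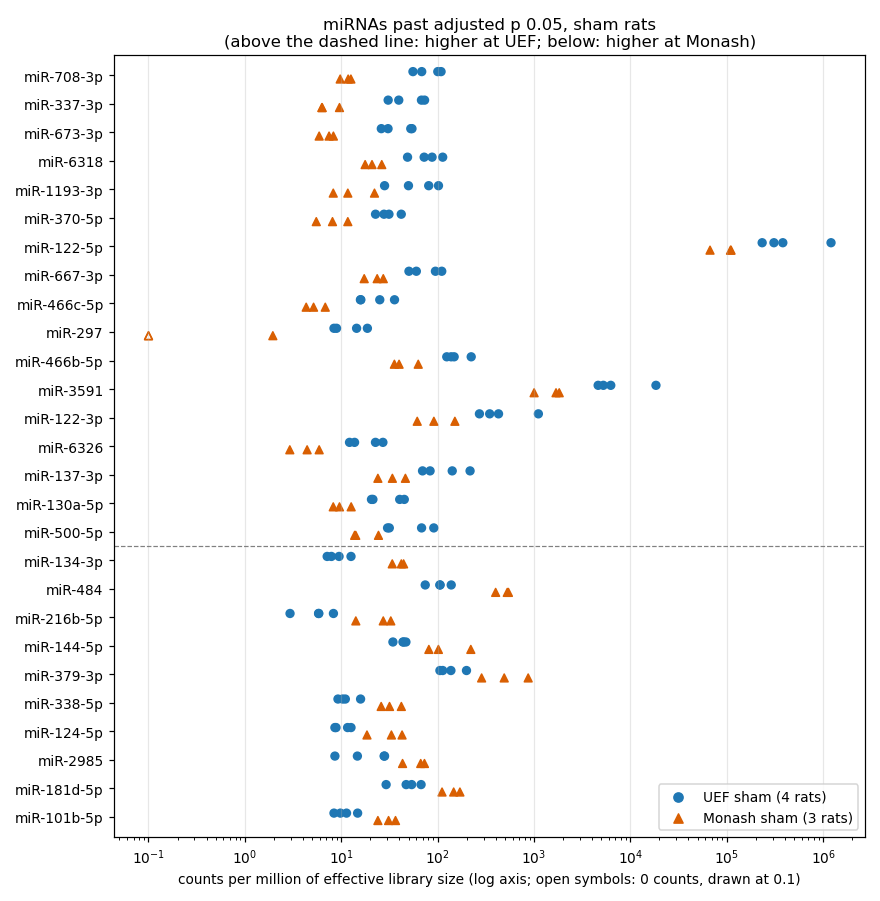
The 27 miRNAs past an adjusted p of 0.05, in CPM of the TMM-scaled library size on a log axis, with 1 point per rat (circles, 4 UEF sham rats; triangles, 3 Monash sham rats; a rat at 0 counts is an open symbol drawn at 0.1). The 17 miRNAs above the dashed line were higher at UEF and the 10 below it at Monash, and in no row do the sites overlap.

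miR-122-5p, the most abundant miRNA of the hepatocyte, was the largest single component of the UEF sham libraries. It took 761717, 1111827, 2877003 and 856680 counts in the 4 UEF rats and 137673, 278114 and 150409 counts in the 3 Monash rats. As a share of all miRNA counts, these were 28.1%, 36.9%, 55.1% and 41.3% at UEF and 9.33%, 9.57% and 12.9% at Monash. Every UEF sham rat was above every Monash sham rat. The mean share was 40.3 ± 11.3% (SD, n = 4) against 10.6 ± 2.0% (SD, n = 3), a difference of 29.7 percentage points (exact permutation p = 0.0286, the smallest possible). On the TMM scale the log2 fold change was 2.48 ± 0.57 (SE; edgeR adjusted p = 0.0256), and without rat 3 of UEF, the highest, it was 1.71 (edgeR adjusted p = 0.0204).

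The other products of the locus were higher at UEF as well. The opposite arm miR-122-3p was at 347, 429, 1111 and 272 CPM at UEF and 61.5, 151 and 91.5 CPM at Monash (log2 fold change 2.41 ± 0.60, edgeR adjusted p = 0.0333). The antisense miR-3591 was at 4635, 6267, 18448 and 5247 CPM at UEF and 1003, 1829 and 1694 CPM at Monash (2.52 ± 0.62, edgeR adjusted p = 0.0333). Its count followed that of miR-122-5p closely, with 14.9 to 19.9 counts of miR-3591 per 1000 counts of miR-122-5p in the 7 rats. Without rat 3 of UEF the log2 fold changes were 1.80 for miR-122-3p and 1.86 for miR-3591, and both still passed. The 3 products are not independent measurements.

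Other liver miRNAs lay in the same direction without passing the adjusted threshold. Of 12 tested miRNAs of the liver list 3 passed, all of this locus, 9 had an unadjusted p under 0.05, and 11 had a positive log2 fold change. Of all 739 miRNAs tested, 3.65% passed and 17.5% had an unadjusted p under 0.05. The median of the list was 1.46, and that of all miRNAs tested was 0.10. It was 1.03 to 1.73 over the alternatives, and 1.04 without rat 3 of UEF. miR-192-5p and miR-194-5p, a co-transcribed pair of liver and gut, had log2 fold changes of 1.82 (edgeR adjusted p = 0.111) and 2.27 (edgeR adjusted p = 0.0734), and the liver-restricted miR-802-5p had 1.40 (edgeR adjusted p = 0.0995). miR-215 was the exception, at -0.99. Together the 12 took 32.1% to 59.3% of the counts of UEF sham rats, 32.1% to 44.6% without rat 3, and 11.3% to 14.5% of those of Monash sham rats. Release was not measured, and the cause of the difference in these shares was not tested. In plasma, release by more cells and more release per cell could not be told apart in any case.

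In injured rats the share of miR-122-5p overlapped between the sites in both outcome groups. In TBI- rats it was 4.67%, 1.58%, 15.1% and 22.6% at UEF and 4.83%, 2.04% and 6.17% at Monash (exact permutation p = 0.4). In TBI+ rats it was 13.3%, 6.08%, 4.43% and 7.0% at UEF and 9.71% and 9.07% at Monash (exact permutation p = 0.667, smallest possible 0.0667). All UEF injured rats were below all UEF sham rats. The UCLA sham rats were lower than either site, at 1.82%, 1.76% and 2.68%.

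**Figure D2:**
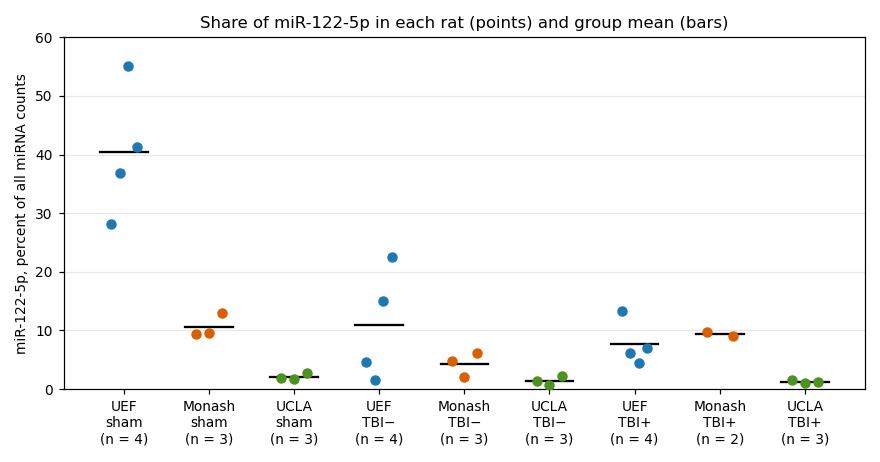
Share of miR-122-5p in all miRNA counts, in percent, for each of the 29 rats (points) by site and group, with the mean of each group as a bar. The 4 UEF sham rats lie between 28.1% and 55.1%, above all other rats, and the 3 Monash sham rats lie between 9.33% and 12.9%.

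The remaining miRNAs higher at UEF were scarce in plasma. miR-708-3p was at 100.5, 68.4, 55.5 and 109 CPM in the UEF rats and 9.76, 12.6 and 11.8 CPM in the Monash rats (log2 fold change 2.87 ± 0.42, edgeR adjusted p = 0.00168). The lowest UEF rat was over 4 times the highest Monash rat. miR-6318, for which no sequence was found, was at 48.8 to 113 CPM at UEF and 17.7 to 26.3 CPM at Monash (1.89 ± 0.41, edgeR adjusted p = 0.0256).

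Of the imprinted Dlk1-Dio3 region, which codes for a large array of miRNAs expressed from the maternal chromosome and best known from brain and placenta, 5 miRNAs were higher at UEF. miR-337-3p was at 68.0, 39.5, 30.7 and 73.3 CPM at UEF and 6.34, 6.30 and 9.59 CPM at Monash (log2 fold change 2.85 ± 0.45, edgeR adjusted p = 0.00204). miR-673-3p was at 54.2, 30.6, 26.1 and 52.7 CPM at UEF and 8.29, 7.48 and 5.90 CPM at Monash (2.48 ± 0.43, edgeR adjusted p = 0.00453). In both, the lowest UEF rat was well above the highest Monash rat. For miR-1193-3p the ranges were 28.2 to 102 CPM and 8.27 to 22.1 CPM (2.25 ± 0.50), for miR-370-5p 22.7 to 42.0 CPM and 5.51 to 11.7 CPM (1.88 ± 0.43), and for miR-667-3p 50.4 to 110.4 CPM and 17.3 to 27.3 CPM (1.80 ± 0.42). The edgeR adjusted p of these last 3 was 0.0256.

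The region did not move as a block. It spans chr6:134298094-134579828 on the plus strand, and 78 tested miRNAs of 43 precursor genes lie in it. Beside the 5 that were higher at UEF, 2 were higher at Monash, 34 of the 78 had a positive log2 fold change and 44 a negative one, and the median was -0.21. Over all 739 miRNAs tested, 2.30% passed as higher at UEF and 1.35% as higher at Monash, and the median was 0.10. Of the 2 miRNAs of the region that were higher at Monash, miR-134-3p comes from a precursor whose other arm limits the size of dendritic spines in neurons. It was at 9.50, 7.91, 7.15 and 12.6 CPM at UEF and 44.4, 33.9 and 42.1 CPM at Monash (log2 fold change -2.10 ± 0.38, edgeR adjusted p = 0.00467). miR-379-3p, from the first hairpin of the miR-379 to miR-410 cluster, was at 106, 199, 137 and 113 CPM at UEF and 286, 871 and 491 CPM at Monash (-1.98 ± 0.50, edgeR adjusted p = 0.0333).

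**Figure D3:**
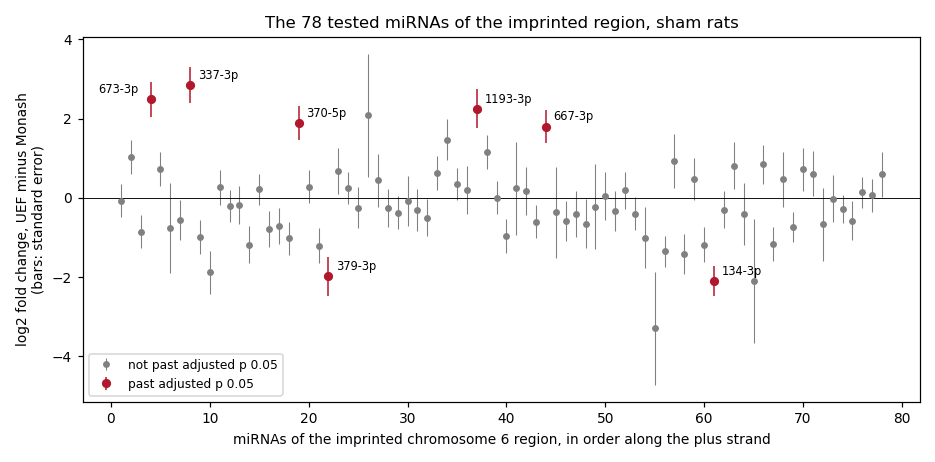
Log2 fold change (UEF minus Monash) with its standard error for the 78 tested miRNAs of the imprinted region of chromosome 6, in their order along the plus strand. The 7 labelled miRNAs passed an adjusted p of 0.05, and they lie among neighbours on both sides of 0.

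miR-466b-5p and miR-466c-5p of a repeat-rich array within the span of Sfmbt2 on chromosome 17, and miR-297, whose sequence is a similar run of UG and UA repeats, were also higher at UEF. miR-466b-5p was at 138, 149, 223 and 124 CPM at UEF and 35.6, 63.0 and 39.8 CPM at Monash (log2 fold change 1.78 ± 0.44, edgeR adjusted p = 0.0333). miR-466c-5p was at 16.0 to 35.7 CPM and 4.33 to 6.83 CPM (2.08 ± 0.48, edgeR adjusted p = 0.0256). miR-297 had 61, 26, 20 and 40 counts at UEF and 4, 0 and 0 counts at Monash. Of the 7 tested miRNAs of this list 3 passed, where 3.65% of all 739 tested did. Of the 7, 6 were positive, and the median was 1.48. That median was 0.27 without rat 1 of UEF and 0.31 when the libraries were thinned to the lowest total. Members of this array are near-copies of each other, and how reads matching several of them were assigned is not stated, so these counts are uncertain.
miR-466b-5p: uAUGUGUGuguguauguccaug
miR-466c-5p: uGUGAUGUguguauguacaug
miR-297: aUGUAUGUgugcauguaugcaug

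miR-137-3p, a miRNA of neurons, was at 142, 83.6, 69.8 and 217 CPM at UEF and 46.3, 24.01 and 33.9 CPM at Monash (log2 fold change 1.88 ± 0.48, edgeR adjusted p = 0.0341). The list it belongs to holds 28 tested miRNAs of neurons and, with miR-219 and miR-338, of oligodendrocytes. Of the 28, miR-137-3p alone passed as higher at UEF, and 2, miR-124-5p and miR-338-5p, passed as higher at Monash. Over all miRNAs tested, 2.30% passed as higher at UEF and 1.35% as higher at Monash. The log2 fold change was positive for 19 of the 28, with a median of 0.21 (0.08 to 0.42 over the alternatives). miR-124-3p, the main miR-124 arm of neurons, had a log2 fold change of 0.61 and did not pass. miR-500-5p, of an X-linked cluster within the span of Clcn5, was at 30.3 to 91.3 CPM at UEF and 13.8 to 24.3 CPM at Monash (1.68 ± 0.46, edgeR adjusted p = 0.0492). The remaining 2 miRNAs of the 17, miR-6326 (2.08 ± 0.53) and miR-130a-5p (1.64 ± 0.43), fell outside the rule for naming and were added after their values were seen.

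Among miRNAs higher at Monash, miR-484 was the most abundant after miR-379-3p. It was at 138, 106, 74.4 and 106 CPM in the UEF rats and 543, 400.3 and 528 CPM in the Monash rats (log2 fold change -2.21 ± 0.45, edgeR adjusted p = 0.0154). miR-216b-5p, from a precursor of the exocrine pancreas, was at 2.94 to 8.30 CPM at UEF and 14.2 to 32.7 CPM at Monash (-2.09 ± 0.48, edgeR adjusted p = 0.0256). The islet miRNA miR-375-3p was at a log2 fold change of 0.14, and no other of the 8 pancreas miRNAs passed.

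The arms miR-124-5p and miR-338-5p come from hairpins of neurons and oligodendrocytes, the latter within Aatk. miR-124-5p was at 8.60 to 12.6 CPM at UEF and 18.5 to 42.8 CPM at Monash (log2 fold change -1.58 ± 0.40, edgeR adjusted p = 0.0341), and miR-338-5p at 9.25 to 15.9 CPM and 25.98 to 42.1 CPM (-1.50 ± 0.38, edgeR adjusted p = 0.0341). miR-2985, within the span of the glutamate receptor gene Gria2, was at 8.60 to 28.1 CPM and 43.3 to 73.0 CPM (-1.61 ± 0.42, edgeR adjusted p = 0.0382). miR-101b-5p, within the span of Rcl1, was at 8.41 to 14.8 CPM and 24.01 to 36.6 CPM (-1.45 ± 0.39, edgeR adjusted p = 0.0387).

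miR-181d-5p was at 29.2 to 67.4 CPM at UEF and 111 to 170.4 CPM at Monash (log2 fold change -1.53 ± 0.40, edgeR adjusted p = 0.0385). It has the seed of miR-181a-5p, miR-181b-5p and miR-181c-5p, which were at -0.48, -0.67 and -0.64 and did not pass.
miR-181d-5p: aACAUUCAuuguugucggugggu

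Of the blood cell miRNAs, miR-144-5p alone passed. miR-144-5p, which is transcribed together with miR-451 in red cell precursors, was at 44.4, 34.4, 43.7 and 46.9 CPM at UEF and 102, 221 and 81.2 CPM at Monash (log2 fold change -1.67 ± 0.42, edgeR adjusted p = 0.0333). None of the 7 red cell miRNAs had a positive log2 fold change, and their median was -0.84. It was -0.31 without rat 2 of Monash, and in the injured rats it was 0.16. miR-16-5p, miR-451-5p and miR-486 were at -0.78, -1.09 and -0.80. As shares of all counts, the red cell list summed to 6.83% to 19.9% at UEF (14.5% to 19.9% without rat 3) and 19.8% to 34.3% at Monash, which overlap by a small margin. Of 6 miRNAs of white cells and platelets none passed or was positive, with a median of -0.94 (-0.63 without rat 2 of Monash and -0.54 in the injured rats) and a summed share of 1.76% to 7.31% at UEF (4.86% to 7.31% without rat 3) and 5.96% to 12.4% at Monash. These shares are taken of the same total as miR-122-5p, and what part of either difference comes from the other was not tested.

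The study used the difference of miR-23a and miR-451 in qPCR as a sign of red cell lysis. By that measure it reported no hemolysis in the samples sent for sequencing. By the absorbance of hemoglobin, which it also measured, a Monash sample and a UCLA sample lay slightly over its limit and no UEF sample did. Whether the Monash sample was from a sham rat is not stated. The values here are a different measure, the log2 ratio of miR-451 to miR-23a in sequencing counts. This ratio was -3.06 ± 0.35 (SD, n = 4) at UEF and -2.53 ± 1.07 (SD, n = 3) at Monash, and the sites overlapped (exact permutation p = 0.371). The spread at Monash came from rat 2, at -1.33 against -2.87 and -3.38 in the others. Without that rat the difference of UEF minus Monash moved from -0.53 to 0.07. That rat also had the highest values of miR-144-5p and miR-379-3p given above.

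None of the miRNAs that the study itself followed passed the threshold between the sham rats of these sites. miR-28-3p, used as a reference for normalisation, had a log2 fold change of 0.42 (edgeR adjusted p = 0.707), miR-434-3p -1.18 (edgeR adjusted p = 0.178; 0.0392 with DESeq2), miR-183-5p 0.47, miR-323-3p -0.37, miR-132-3p -0.62, miR-212-3p -0.31, miR-9a-3p 0.16, miR-23a-3p -0.11 and the joined entry of miR-103-3p and miR-107-3p -0.14. Of the 6 miRNAs with the largest shares over the 7 rats, miR-122-5p alone passed. miR-16-5p took a mean of 8.87% at UEF and 17.5% at Monash, and miR-486 took 5.11% and 9.07%. let-7c-5p, miR-191a-5p and miR-223-3p followed. Of 26 lists examined 10 held at least 1 miRNA that passed, and the medians of the other 16 ranged from -0.94 to 0.84.

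The arms of 1 precursor often differed. At 264 precursors both arms were tested, and the log2 ratio of 3p to 5p counts (0.5 added to each) did not overlap between the sites at 57 of them (21.6%). At 19 precursors exactly 1 arm had passed, so their ratios are given as a description. The log2 ratio of miR-708 was 2.10, 2.13, 1.90 and 2.27 in the UEF rats and -1.96, -0.61 and -1.02 in the Monash rats. The 3p arm was thus the more abundant one in every UEF sham rat and the 5p arm in every Monash sham rat. The same change of the leading arm was found for miR-673, at 1.04 to 2.00 against -2.05 to -0.96.

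For miR-337 the ratio was 1.97 to 3.18 at UEF and -1.30 to 0.11 at Monash, for miR-1193 2.12 to 3.72 and 0.19 to 0.89, and for miR-667 2.24 to 2.71 and -0.04 to 0.38. The 5p arms of these 5 hairpins did not pass, with log2 fold changes of -0.53 for miR-708-5p, -0.57 for miR-337-5p, -0.85 for miR-673-5p, 0.19 for miR-1193-5p and -0.60 for miR-667-5p. The log2 ratio of the arms of miR-122 differed by 0.08 between the sites (two-sided exact permutation p = 0.743).

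The arm ratios followed a further pattern over all 29 rats, seen after the sham comparison was made and given as a description. The ratios of these 5 hairpins were low in all 9 libraries of 3 groups (Monash sham, Monash TBI- and UCLA TBI+) and higher in all 20 libraries of the other 6 groups. The 5 were picked from the 19 precursors with exactly 1 arm past the threshold. How many of the other precursors, of 264 tested, follow the same split was not counted. The log2 ratio of miR-337 was -1.34 to 0.27 in the 9 and 1.37 to 3.18 in the 20, that of miR-667 was -0.25 to 1.34 and 1.60 to 3.09, and that of miR-1193 was -0.53 to 1.65 and 2.12 to 4.35. For miR-708 the ranges were -2.15 to -0.61 and -0.53 to 2.91, and for miR-673 -2.08 to -0.62 and -0.28 to 2.40. In none of the 5 did the ranges overlap.

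The level of miR-708-3p, scaled over all 29 rats, was 5.96 to 14.8 CPM in the 9 libraries and 41.0 to 129.6 CPM in the 20. The levels of miR-337-3p, miR-673-3p, miR-6318, miR-1193-3p, miR-370-5p, miR-667-3p, miR-6326, miR-137-3p and miR-130a-5p did not overlap either. The narrowest margin was that of miR-6326, at 3.31 to 9.88 CPM and 10.6 to 37.8 CPM. The other miRNAs that passed in sham rats overlapped, among them miR-122-5p, miR-466b-5p and all that were higher at Monash. Only the miRNAs that passed, and a few others, were examined for this split, and its share over all miRNAs tested was not computed. Those that passed were chosen by comparing the Monash shams with the UEF shams, and the Monash shams are among the 9. The 9 libraries fill columns 15 to 23 of the deposited table without a gap, the Monash shams at 16, 19 and 20, whereas the UEF shams fill columns 1 to 4. The labels give no plate, run or date. In the sham rats site and place in the table cannot be told apart. Neither a difference in library handling that the labels do not record nor an exchange of labels between groups was tested, and neither can be told apart from site in the calls between UEF and Monash sham rats.

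**Figure D4:**
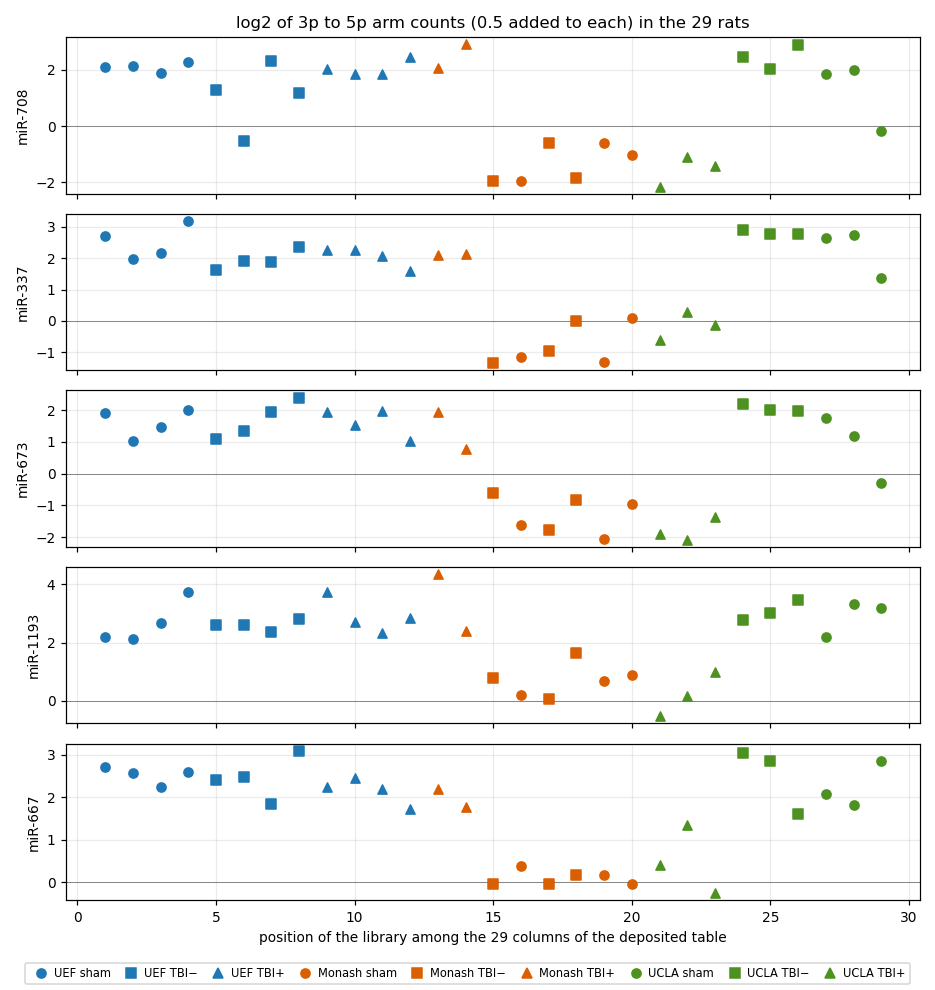
Log2 ratio of 3p to 5p counts (0.5 added to each) of 5 precursors, against the position of the library among the 29 columns of the deposited table; colour gives the site and shape the group. The 9 libraries of columns 15 to 23, which are the Monash sham, Monash TBI- and UCLA TBI+ rats, lie below all other libraries in each of the 5 panels.

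The same site contrast was made in the 13 injured rats of UEF and Monash, which share no rat with the sham comparison. With outcome as a covariate, none of 749 miRNAs passed an adjusted p of 0.05 with edgeR (0%; lowest adjusted p 0.104), 118 had an unadjusted p under 0.05 (15.8%), and DESeq2 called 39, of which 9 were among the 27. Of the 27, 26 had the same sign as in sham rats (96.3%), as did 476 of the 738 miRNAs tested in both (64.5%), and 14 had an unadjusted p under 0.05 in that direction. The differences were smaller in all 27, with a median absolute log2 fold change of 0.85 against 1.98 in the sham rats by which they were chosen. A test of the interaction of site with injury over all 20 rats called none of 752 miRNAs (0%; lowest edgeR adjusted p 0.308), with 62 at an unadjusted p under 0.05 (8.24%) and none with DESeq2. 11 of the 27 were among the 62. That count is not independent, since the interaction uses the same sham values by which the 27 were chosen.

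The injured rats were then divided by outcome, a choice made after these results were seen. In TBI- rats alone, 4 of UEF against 3 of Monash, edgeR called 15 of 744 miRNAs (2.02%; 143 or 19.2% at an unadjusted p under 0.05). Of the 27, 26 had the same sign (67.4% of all miRNAs) and 10 passed, all of them among the 17 higher at UEF. These were miR-708-3p, miR-337-3p, miR-673-3p, miR-1193-3p, miR-370-5p, miR-667-3p, miR-466c-5p, miR-297, miR-137-3p and miR-500-5p. miR-708-3p was at 2.88 ± 0.38 in TBI- and 2.87 ± 0.42 in sham rats, and miR-337-3p at 2.99 ± 0.36 and 2.85 ± 0.45 (edgeR adjusted p = 0.00524 in TBI- rats for each). miR-667-3p was at 2.53 ± 0.37 in TBI- and 1.80 ± 0.42 in sham rats, and miR-466c-5p at 1.71 ± 0.37 and 2.08 ± 0.48. The fitted values of miR-297, with few or no counts at Monash, were further apart, at 6.49 ± 0.91 and 4.13 ± 1.00. The median over the 17 was 2.10 in TBI- rats. miR-122-5p, at 1.21 ± 0.82, did not pass, nor did any of the 10 that were higher in Monash sham rats, whose median was -0.57.

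In TBI+ rats alone, 4 of UEF against 2 of Monash, none of 746 passed with edgeR (0%; 54 or 7.24% at an unadjusted p under 0.05, and 14 with DESeq2, none of them among the 27). Of the 27, 17 had the same sign as in sham rats (63.0%, against 49.5% of all), and the median of the 17 higher at UEF was 0.05. miR-708-3p was at -0.12 ± 0.35 and miR-337-3p at -0.20 ± 0.34. miR-379-3p stood lower at UEF in each group, at -1.98 in sham, -1.95 in TBI- (edgeR adjusted p = 0.0911) and -1.31 ± 0.62 in TBI+ rats.

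The difference of the site contrast between TBI- and TBI+ rats was itself tested. It passed for 7 of 752 miRNAs (0.931%), of which 5 were among the 27. The change of the log2 fold change from TBI- to TBI+ rats was -3.08 for miR-337-3p (edgeR adjusted p = 0.00591), -2.89 for miR-708-3p (edgeR adjusted p = 0.00823), -2.41 for miR-673-3p (edgeR adjusted p = 0.00996), -2.39 for miR-667-3p (edgeR adjusted p = 0.0103) and -2.54 for miR-370-5p (edgeR adjusted p = 0.0333). The 2 Monash TBI+ libraries are at columns 13 and 14 of the table, outside the run of 9.

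**Figure D5:**
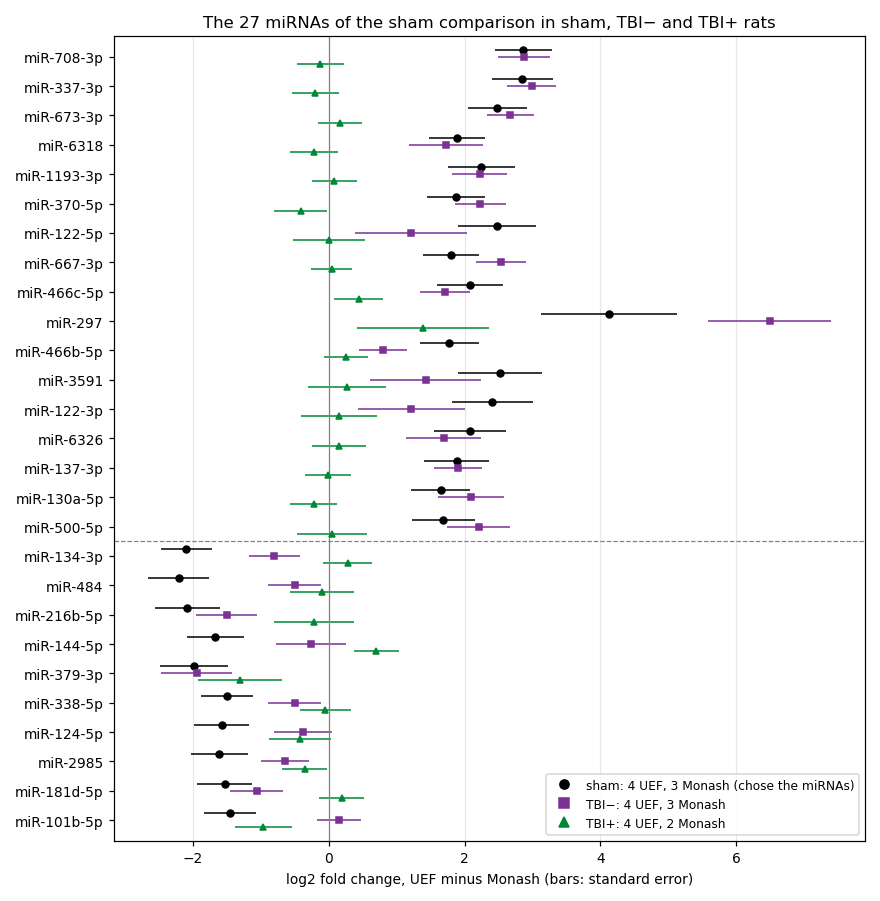
Log2 fold change, UEF minus Monash, with its standard error for the 27 miRNAs in sham rats (circles, 4 against 3, which chose the miRNAs), TBI- rats (squares, 4 against 3) and TBI+ rats (triangles, 4 against 2). In the 17 miRNAs above the dashed line the median is 2.10 in TBI- and 0.05 in TBI+ rats; miR-297, with few or no counts at Monash, has the widest bars.

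The same miRNAs also separated 2 groups of a site outside the comparison. Between the 3 TBI- and the 3 TBI+ rats of UCLA, edgeR called 76 of 730 miRNAs (10.4%), 65 of them higher in TBI- (8.90%). Of the 17 miRNAs higher in UEF sham rats, 13 were called higher in UCLA TBI- rats. The log2 fold change of TBI+ minus TBI- was -3.71 ± 0.38 for miR-708-3p (edgeR adjusted p = 0.000173), -3.28 ± 0.33 for miR-337-3p (edgeR adjusted p = 0.000173) and -3.55 ± 0.32 for miR-673-3p (edgeR adjusted p = 0.000170). The 4 that were not called were miR-122-5p (0.11), miR-122-3p, miR-3591 and miR-466b-5p. Of the 10 higher in Monash sham rats, miR-134-3p and miR-144-5p were called, both higher in UCLA TBI+ rats, miR-134-3p by 1.43. The UCLA TBI+ rats fill columns within the run of 9, and the UCLA TBI- rats do not.

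The 10 sham rats of all sites were also fitted together, in which the contrasts share their groups and are therefore given side by side. The products of miR-122 were graded over the sites. For miR-122-5p the log2 fold change was 5.35 for UEF minus UCLA (edgeR adjusted p = 0.000196) and 2.74 for Monash minus UCLA (edgeR adjusted p = 0.0163). For miR-708-3p they were 0.44 (edgeR adjusted p = 0.608) and -2.48 (edgeR adjusted p = 0.00387), and for miR-337-3p 0.15 (edgeR adjusted p = 0.901) and -2.76 (edgeR adjusted p = 0.00225). miR-466b-5p was at 1.68 and -0.18, and miR-484 at -0.57 and 1.58 (edgeR adjusted p = 0.0481 for the latter).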

How the data were processed

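Plasma small RNA of 29 rats was sequenced, and the 7 sham rats of UEF (4) and Monash (3) were compared. The deposited values are raw read counts per mature miRNA, which the authors made by trimming with cutadapt and aligning with Bowtie to Rnor_6.0, as the submitters' processing notes and the methods state; whether unique molecular identifiers were merged, how strand was used and how reads matching several miRNAs were counted is not given in the sources used here. Reads without merged identifiers are not independent molecules, so shares carry more than counting error. Entries that join several miRNA names (7 of them) were kept joined. Totals per sham rat ranged from 1162307 to 5223469 counts.

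From the counts, edgeR 4.0.16 (R 4.3.3; low miRNAs removed by filterByExpr at 10 counts, TMM scaling, quasi-likelihood F test, Benjamini-Hochberg over all miRNAs tested, threshold 0.05) compared the sites in sham rats. The same fit was made in the injured rats with outcome as a covariate, and the interaction of site and injury was tested in 20 rats. Fold changes are edgeR's, on the log2 scale, and log2 CPM used a prior count of 2. Values per rat are CPM of the TMM-scaled library, in which a rat dominated by 1 miRNA can exceed its raw share, or percent of all counts. Single values per rat were compared by exact permutation over all assignments, 35 for 4 rats against 3 and 15 for 4 against 2. Labels give each rat as a separate animal, with 1 library each, so p-values measure the spread between animals, extraction and library included. DESeq2 1.42.0, other scalings, filters, sets of rats and leaving out each rat were alternatives. The TBI-, TBI+, site by outcome, UCLA and arm comparisons, and the removal of the 3 miR-122 locus miRNAs, were chosen after seeing the data. The miRNA lists and comparison were chosen with earlier results of these data known, and lists were described by counts and medians, with no test. Named miRNAs were up to 12 per direction of lowest p among those that passed, those the study names, the 6 with the largest share, and in each list those that passed or else the most abundant. The fits were tested on simulated data. Sequences and positions came from RefSeq on GRCr8, which is not the build of the counts.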

Additional observations from a re-analysis of the deposited data

Results flagged for a closer look

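Among the 4 UEF sham rats, rat 3 lay far above the others in 2 of the 58 groups of values examined for a single rat far from the rest, of which chance flags about 1 in 20. Its miR-122-5p was at 1210000 CPM of the TMM-scaled library, where the median of the UEF shams was 345700, and its miR-3591 was at 18450 CPM, where the median was 5757. miR-3591 is antisense to miR-122-5p, so the 2 values are not independent. The difference between the sites in miR-122-5p passed without this rat as well. It passed in 14 of the 19 alternatives, which include the fit from which this miRNA was removed.

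The difference between UEF and Monash itself differed between TBI- and TBI+ rats in 5 of the 27 miRNAs, by edgeR's test of the interaction of site and outcome. The log2 change from TBI- to TBI+ was -2.89 for miR-708-3p, -3.08 for miR-337-3p, -2.41 for miR-673-3p, -2.54 for miR-370-5p and -2.39 for miR-667-3p. The Monash TBI- libraries lie within columns 15 to 23 of the deposited table and the Monash TBI+ libraries at columns 13 and 14, so in Monash rats outcome and place in the table cannot be told apart.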

How the results depend on the processing

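Of the sham comparison, the 27 miRNAs became 89 with DESeq2 (48 higher at UEF and 41 at Monash, all 27 among them), 70 with all 29 rats in the fit (all 27 among them), 5 with total counts alone, 9 when at least 100 counts in 3 rats were required (of 333 tested), 17 without the 3 miR-122 locus miRNAs and 0 with miR-28-3p as the size factor (56 at an unadjusted p under 0.05). Leaving out 1 rat gave 5 to 36. Under the 5 other settings it was 22 to 35. The median log2 fold change of all miRNAs was 0.10, and -0.13 with total counts alone. The members of lists that passed, 19 in all, became 49 with DESeq2, 5 with total counts, 0 with miR-28-3p, 7 with the stricter filter, 38 with all rats, 10 without the miR-122 locus miRNAs and 2 to 24 without 1 rat. Of 494 medians of lists under alternatives, 124 moved by more than the SD over the medians without 1 rat. None of the 27 changed sign in any of 19 alternatives, and each passed in 6 to 17 of them. The causes were not tested, except that fewer miRNAs or rats entered where stated.

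Replicate numbers did not pair the rats: the deviations of same-numbered UEF and Monash shams correlated at 0.329, 0.137 and -0.108. With the number as a replicate block, 57 miRNAs passed (25 of the 27) and 30 members of lists, and the injured and interaction comparisons still gave 0.

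The injured comparison gave 0 with edgeR, 39 with DESeq2, 15 in TBI- rats alone (69 with DESeq2), 14 in TBI+ rats with DESeq2, and 0 to 2 without 1 rat, where an arm of 1 rat was assumed to vary like the others. The interaction of site and injury gave 0 in every alternative run. The difference in detected miRNAs, 28.6 higher at UEF, reversed to -37.2 when libraries were thinned to the lowest total. The log2 ratio of miR-451 to miR-23a differed by -0.956 to 0.066 without 1 rat, reversed without rat 2 of Monash. The difference in profile similarity was 0.0397 to 0.0549 without 1 rat, with p at 0.0667 or 0.1, the smallest that 6 rats allow. miRNAs of mean counts under 100, which are 58.1% of those tested, are the most limited by depth.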

Other observations

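The median GC content of the mature sequences was 45.2% for the 16 miRNAs with a sequence that were higher at UEF, 45.5% for the 9 higher at Monash and 47.8% for all 660 tested miRNAs with a sequence. The median length was 22 bases in each.

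The hairpins of miR-101b and miR-124 also had a higher 3p to 5p ratio at UEF, but there the arm that had passed was the 5p arm, which was higher at Monash. The log2 ratio was 7.58 ± 1.18 (SD, n = 4) at UEF and 4.69 ± 0.57 (SD, n = 3) at Monash for miR-101b, and 1.62 ± 0.24 and -0.50 ± 0.08 for miR-124, with no overlap between the sites in either.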
